A study of Homo sapiens with 18 samples.

Results

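Switching off a receptor that signals through G proteins takes several groups of proteins, and 32 human genes for them were followed here in a human neuroblastoma line given opioid ligands. The members are a set chosen by name: 20 genes for regulators of G protein signalling (RGS1 to RGS14 and RGS16 to RGS21), the anchors RGS7BP and RGS9BP, the receptor kinase genes GRK2 to GRK6, the β-arrestin genes ARRB1 and ARRB2, and GPSM1, GPSM2 and GPSM3. All 32 were found among the 58735 genes of the deposited count table. SH-SY5Y cells took all-trans retinoic acid (10 µM) for 7 days, which pushes this line towards a neuron-like state, and were then given a ligand or water for 15 min. The groups were morphine (193 nM), metamorphine (169 nM), TRV130 (200 nM), β-endorphin (200 nM), naloxone (200 nM) and Control, which received water. Each group had 3 libraries of total RNA sequenced without strand information. All 18 libraries share the cell line, labelled as wild type, and the retinoic acid, so no sample here shows the members without either of them. The labels do not say that replicates are separate cultures. The tests therefore judge differences against the library-to-library spread, which could be technical only.

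An activated opioid receptor loads GTP onto Gαi, Gαo or Gαz. RGS proteins speed the hydrolysis of that GTP and so shorten the signal. Kinases of the GRK family phosphorylate the occupied receptor, arrestins bind the phosphorylated receptor, uncouple it from the G protein and lead it to clathrin-coated pits, and GPSM proteins hold free Gα subunits in the GDP-bound form. Morphine and β-endorphin, an endogenous peptide, are agonists of the μ receptor, TRV130 (oliceridine) is an agonist described as favouring G protein signalling over arrestin recruitment, and naloxone is an antagonist.

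Library totals ran from 21211449 to 33123855 counts. Library names end in 1 of 3 codes, called C (5 libraries), B (6 libraries) and A (7 libraries) here. What a code stands for is not given. Each group has 1 library of each code, except TRV130, whose libraries are 2 of code A, written with an extra leading digit, and 1 of code B. All 8 noradrenergic neuroblastoma markers were above 1 CPM (read counts scaled to a common library size with TMM) and summed to 4918 to 6788 CPM. Of the markers of other cells, 5 of 7 mesenchymal, 3 of 6 Schwann and glial, 2 of 8 lymphoid and myeloid, 1 of 4 platelet, 1 of 6 photoreceptor and 1 of 6 epithelial ones also averaged over 1 CPM. The lymphoid and myeloid list summed to 4.48 to 12.95 CPM, while its defining gene PTPRC averaged 0.018 CPM. Some libraries stood apart. Control 1 held 20888 reads in coding genes that were silent in most libraries, Naloxone 1 held 3074 and Naloxone 2 held 1495, against 276 to 1052 in the other 15. Within code A, Control 1, TRV130 1 and TRV130 2 had TMM scaling factors of 0.870 to 0.887 and mitochondrial shares of 13.3% to 17.7%, against factors of 1.023 to 1.048 and shares of 6.15% to 10.1% in the other 4 libraries. These 3 libraries lay entirely above the other 4 for 10 of the 27 members that passed the low-count filter, where 24% of all 23231 tested genes did, and entirely below them for 6 members, where 24.2% of genes did.

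RGS2 and RGS16 are 2 of the 3 members with the smallest p among library codes, and every code C library lay above every other library for both. They lie on the long arm of chromosome 1, and the 250 bases upstream of each start are printed so that the 2 promoters can be set side by side. They come from RefSeq (GRCh38.p14). RGS2, which acts mainly on Gαq, starts on the plus strand after chr1:192808789-192809038. RGS16, which acts on Gαi and Gαq, starts on the minus strand after chr1:182604390-182604639. Capitals mark a cyclic AMP response half-site (TGACG, either strand).
RGS2: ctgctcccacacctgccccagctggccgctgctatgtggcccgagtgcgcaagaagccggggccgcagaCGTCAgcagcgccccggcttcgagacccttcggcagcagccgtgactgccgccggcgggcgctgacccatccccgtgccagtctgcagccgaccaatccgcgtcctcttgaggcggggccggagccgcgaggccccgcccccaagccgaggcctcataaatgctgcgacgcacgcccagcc
RGS16: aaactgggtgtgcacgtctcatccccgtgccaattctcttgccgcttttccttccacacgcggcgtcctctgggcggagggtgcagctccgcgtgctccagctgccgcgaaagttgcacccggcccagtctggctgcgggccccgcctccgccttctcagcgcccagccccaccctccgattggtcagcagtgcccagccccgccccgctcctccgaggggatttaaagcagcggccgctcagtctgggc
The RGS2 window holds the half-site on the opposite strand, 181 bases before the start, as do 21.2% of 35116 promoter windows of this length. None lies in the RGS16 window. Both windows hold a GC box (GGGCGG, in 42.6% of windows) and a CCAAT box (in 32.01%), and RGS16 holds each of them on both strands, 1 copy a strand. These matches describe the letters only.

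The levels of the members spanned the range from silent to among the most abundant mRNAs of these cells. RGS1, RGS18 and RGS21 had no read in any library, which allows up to 0.141 CPM in the shallowest one by counting error alone. RGS1 and RGS18 are known from lymphocytes and platelets. RGS7BP, a membrane anchor of neuronal RGS7 family proteins, had 1 read in all, and RGS6 had 34 reads spread over 10 libraries. These 5 were not tested. Over the 18 libraries, 3 members averaged more than 100 CPM, 18 averaged 10 to 100, 5 averaged 1 to 10 and 3 lay above 0 but at or under 1 CPM.

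**Figure D1:**
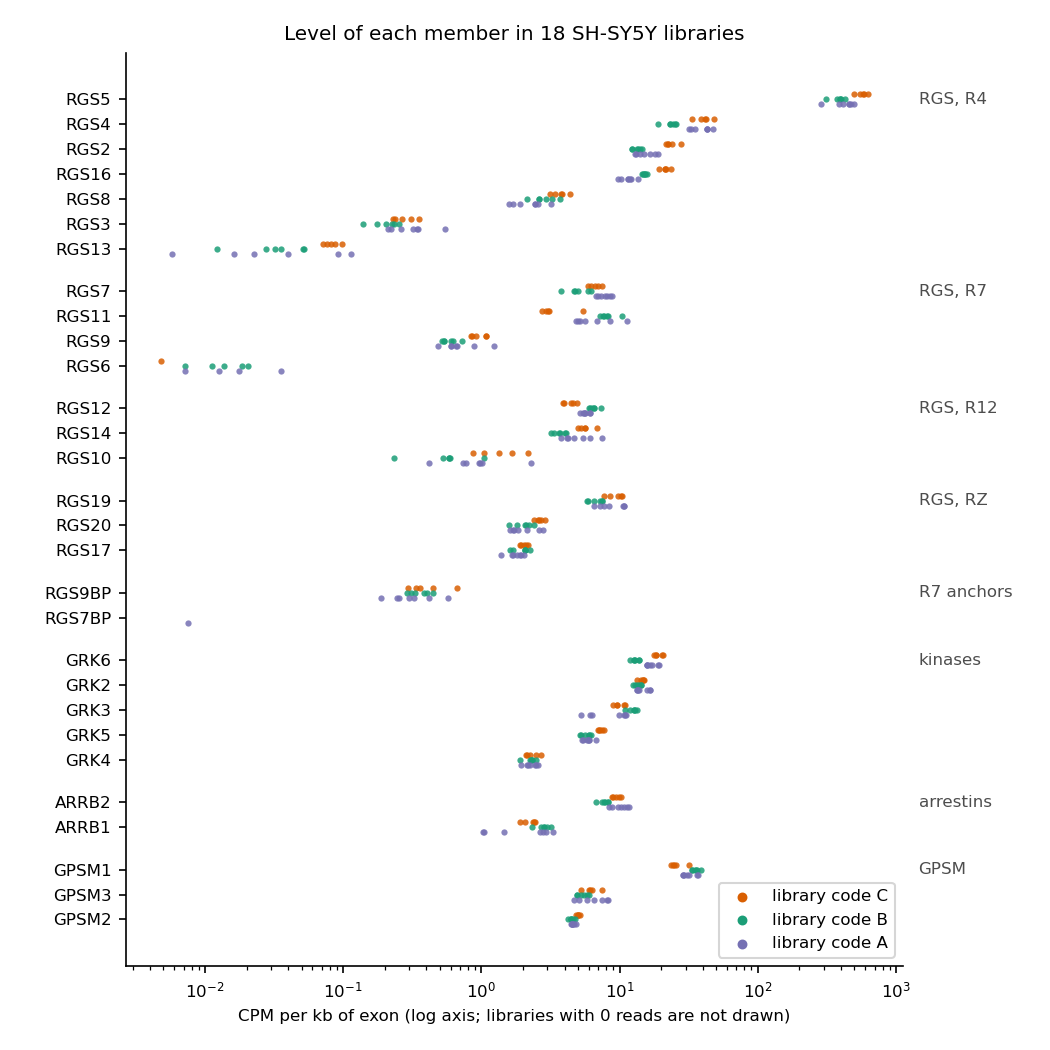
Level of each member with at least 1 read in each of 18 libraries, as CPM per kb of exon on a log axis, grouped by family and coloured by library code. RGS5 stands at the top with a mean of 450 CPM per kb, RGS4 and GPSM1 follow at 34.4 and 31.4, and libraries with 0 reads are not drawn.

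RGS5 was the leading member by a wide margin. It averaged 449.6 CPM per kb of exon, rank 42 among 19951 protein-coding genes, and RGS4 followed at 34.4 (rank 1159), GPSM1 at 31.4 (rank 1296), RGS2 at 17.1 and GRK6 at 16.3 CPM per kb. The 10 genes of the R4 family, small RGS proteins that are little more than the catalytic domain, made up 78.7% of the summed CPM per kb of all members. The kinases made up 7.46%, the GPSM genes 6.38%, the R7 family 2.06%, the RZ family 1.87%, the arrestins 1.75% and the R12 family 1.72%. RGS4 and RGS5, the 2 leading members, lie 34.3 kb apart on chromosome 1 and point towards each other. RGS16 and RGS8 lie 37.4 kb apart. RGS18, RGS21, RGS1 and RGS13 form a run at chr1:192158457-192812283 that ends in RGS2, and of these 5 neighbours RGS2 alone exceeded 1 CPM.

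Because the counts carry no strand, reads in exons shared with a gene on the opposite strand cannot be assigned. GPSM2 shares 2801 exon bases with CLCC1, RGS9BP shares 812 with ANKRD27, RGS11 shares 581 with ARHGDIG, RGS5 shares 534 with a second non-coding entry of the same name (left out), GRK6 shares 399 with F12 and RGS7 shares 240 with an antisense gene. The values of GPSM2, RGS9BP and RGS11 are the most uncertain of these for that reason.

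With 15 min of ligand, no member passed the threshold. In each of the comparisons of morphine, metamorphine, TRV130, β-endorphin, naloxone and the mean of the 5 compounds with Control, edgeR's quasi-likelihood test called 0 of 27 tested members at an adjusted p under 0.05, against 0% of 23231 genes. The test for any difference among the 6 groups and the comparison of β-endorphin with naloxone likewise called 0 members and 0% of genes. At an unadjusted p under 0.05 there was 1 member with morphine, 1 with metamorphine, 1 with TRV130, 1 with β-endorphin, 0 with naloxone, 3 with the mean of the compounds, 0 among the 6 groups and 0 between β-endorphin and naloxone. Over all genes those shares were 4.06%, 7.83%, 1.85%, 9.46%, 6.65%, 11.4%, 2.43% and 0.224%, in the same order of comparisons. DESeq2 called no member in any of the 8 comparisons. The 95% interval of the fold change stayed within 2-fold in both directions for 20 members with morphine, 19 with metamorphine, 20 with TRV130, 17 with β-endorphin, 19 with naloxone and 24 between β-endorphin and naloxone. For the other members this spread leaves a change of 2-fold or more inside the interval. The median log2 fold change of the members lay between -0.12 and -0.01 in the 5 compounds, against -0.04 to -0.02 over all genes. Code was not a term in these fits, so differences between codes are part of their spread. With the code as a block no member was called either. RGS17 then had an adjusted p of 0.336 with morphine and 0.182 with metamorphine, and RGS9BP 0.977 with TRV130. RGS10 had 0.134 with β-endorphin and RGS3 0.195 with naloxone. Each had the smallest p of the members without the block. For the mean of the compounds, 6888 genes had an unadjusted p under 0.05 with the block, against 2654 without it.

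RGS17, whose product is a regulator of Gαz and Gαi in the RZ family, was 1 of the 3 members with an unadjusted p under 0.05 for the mean of the compounds, with RGS10 and RGS3, and the only one of them with a higher level than Control. Its libraries read 15.99, 16.4 and 16.01 CPM with morphine, 15.3, 17.7 and 17.04 with metamorphine, 13.3, 14.4 and 13.4 with TRV130, 14.97, 16.3 and 16.6 with β-endorphin and 13.2, 16.2 and 15.2 with naloxone, against 10.97, 12.7 and 14.9 CPM in Control. Control had the lowest library, and the morphine, metamorphine and β-endorphin libraries all lay above its highest value. The log2 fold change was 0.32 with morphine (SE 0.15, interval 0.01 to 0.63, adjusted p = 0.823), 0.37 with metamorphine (SE 0.15, interval 0.06 to 0.68, adjusted p = 0.595) and 0.31 with β-endorphin (SE 0.15, adjusted p = 0.513). For the mean of the compounds it was 0.26 (SE 0.12, adjusted p = 0.434), and 0.28 with the library code as a block (adjusted p = 0.107). It was 0.20 with that block and no Control 1 (adjusted p = 0.935), 0.18 without Control 1, Naloxone 1 and Naloxone 2, and 0.16 without Control 1, TRV130 1 and TRV130 2 (adjusted p = 0.977). Within a code, all 15 compound libraries lay above the Control library, by a median of 0.13 (log2 CPM, prior count 2) in code C, 0.35 in code B and 0.42 in code A. Of all tested genes 3.69% lay above their Control in all 15, and the 15 values share only 3 Control libraries.

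GRK3, a kinase that Gβγ brings to the membrane, was the other member above its Control in all 15 libraries. No member lay below it in all 15, where 2.79% of genes did. It read 101, 111 and 89.2 CPM with morphine, 103, 118 and 101 with metamorphine, 57.02, 59.1 and 120.4 with TRV130, 99.7, 124 and 101 with β-endorphin and 91.8, 119 and 88.6 with naloxone, against 48.6, 101 and 82.8 CPM in Control. The low values are Control 1, TRV130 1 and TRV130 2, the code A libraries with low scaling factors. The median difference from Control was 0.98 in code A, against 0.20 in code C and 0.24 in code B (log2 CPM). The fit gave a log2 fold change of 0.47 with metamorphine (SE 0.28, adjusted p = 0.602, and 0.23 without those 3 libraries).

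ARRB1, the gene of β-arrestin 1, had the same 3 low libraries. It read 19.1, 13.6 and 11.97 CPM with morphine, 17.2, 18.6 and 13.7 with metamorphine, 6.07, 8.54 and 17.3 with TRV130, 15.4, 16.6 and 14.3 with β-endorphin and 16.1, 15.7 and 13.99 with naloxone, against 6.03, 16.4 and 11.1 CPM in Control. Control 1, TRV130 1 and TRV130 2 lay between 6.03 and 8.55 CPM, and the other 4 code A libraries between 15.4 and 19.1.

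RGS3 and RGS10 had their highest value in Control 1. RGS3, an R4 family gene with long and short protein forms, read 3.07, 3.51 and 3.16 CPM with morphine, 2.93, 2.81 and 4.26 with metamorphine, 4.74, 4.77 and 3.20 with TRV130, 3.64, 2.42 and 3.27 with β-endorphin and 4.40, 1.93 and 3.66 with naloxone, against 7.47, 3.09 and 4.84 CPM in Control. Its log2 fold change was -0.66 with morphine (adjusted p = 0.823), -0.63 with metamorphine (adjusted p = 0.595), -0.72 with β-endorphin (adjusted p = 0.513), -0.62 with naloxone (adjusted p = 0.655) and -0.58 over the mean of the compounds (adjusted p = 0.434). Without Control 1, Naloxone 1 and Naloxone 2, the libraries with most reads in otherwise silent genes, the values were -0.29, -0.26, -0.35 and -0.07 with those 4 compounds and -0.17 for the mean. The naloxone value then rests on Naloxone 3 alone, and it was -0.33 with the code as a block and no Control 1. RGS10, a small RGS protein of the R12 family, read 0.524, 1.31 and 1.31 CPM with morphine, 1.25, 0.733 and 2.08 with metamorphine, 1.21, 1.23 and 0.742 with TRV130, 0.927, 0.292 and 1.09 with β-endorphin and 0.966, 0.730 and 1.67 with naloxone, against 2.88, 0.663 and 2.72 CPM in Control. Its log2 fold change was -0.99 with morphine, -0.98 with TRV130 (SE 0.58, adjusted p = 0.9996), -1.43 with β-endorphin (SE 0.60, interval -2.69 to -0.17, adjusted p = 0.513) and -0.98 over the mean of the compounds. Without the same 3 libraries the TRV130 value was -0.66 and the mean -0.56, and with the code as a block and no Control 1 morphine was at -0.39, TRV130 at -0.18, β-endorphin at -0.97 and the mean at -0.42. Without Control 1, TRV130 1 and TRV130 2 the TRV130 value was -1.21 and the mean -0.78, with TRV130 3 as the only TRV130 library left. Each RGS10 library held 7 to 64 reads, so its counting error is large.

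RGS9, RGS9BP and RGS19 were among the 3 members with the smallest p in the TRV130 or the naloxone comparison, and none passed. RGS9, the R7 family protein known from striatal neurons and photoreceptors, read 4.19, 6.16 and 3.74 CPM with TRV130 and 4.20, 3.61 and 6.42 with naloxone, against 8.59, 4.20 and 7.61 CPM in Control. Its log2 fold change was -0.53 with TRV130 (SE 0.34, adjusted p = 0.9996), or -0.01 with the code as a block and no Control 1. Without Control 1, TRV130 1 and TRV130 2 it was -0.68, with TRV130 3 alone in its group. With naloxone it was -0.52 (SE 0.34, adjusted p = 0.655), or -0.22 with the code as a block and no Control 1. All 3 naloxone libraries lay below the Control library of their code. The naloxone value turned to 0.16 without Control 1, Naloxone 1 and Naloxone 2, with Naloxone 3, of code C, alone in its group. RGS9 means with the other compounds also lay below the Control mean of 6.80 ± 2.31 CPM. They were 4.81 ± 1.33 with morphine, 4.74 ± 1.07 with metamorphine and 5.53 ± 1.75 with β-endorphin. RGS9BP, the membrane anchor of RGS9 in photoreceptors, read 0.548, 0.715 and 0.843 CPM with TRV130, against 1.66, 1.10 and 1.04 CPM in Control, a log2 fold change of -0.85 (SE 0.36, adjusted p = 0.9996), or -0.36 without Control 1, TRV130 1 and TRV130 2. Every TRV130 library lay below every Control library for this gene. Its means were 0.892 ± 0.045 CPM with morphine, 1.33 ± 0.60 with metamorphine, 1.04 ± 0.14 with β-endorphin and 1.11 ± 0.22 with naloxone. The Control mean was 1.27 ± 0.34 CPM. RGS19, an RZ family protein first found through its binding to Gαi3, read 13.2, 13.1 and 17.3 CPM with naloxone, against 21.7, 15.1 and 21.1 CPM in Control, a log2 fold change of -0.41 (SE 0.24, adjusted p = 0.655). It was -0.31 with the code as a block and no Control 1, and -0.30 without Control 1, TRV130 1 and TRV130 2. Without Control 1, Naloxone 1 and Naloxone 2 it was -0.02, with Naloxone 3 as the only naloxone library left. RGS19 means with β-endorphin (14.8 ± 2.64 CPM), morphine (15.7 ± 4.47) and metamorphine (16.6 ± 2.66) also lay below Control (19.3 ± 3.67). The TRV130 mean did not (19.6 ± 3.80).

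**Figure D2:**
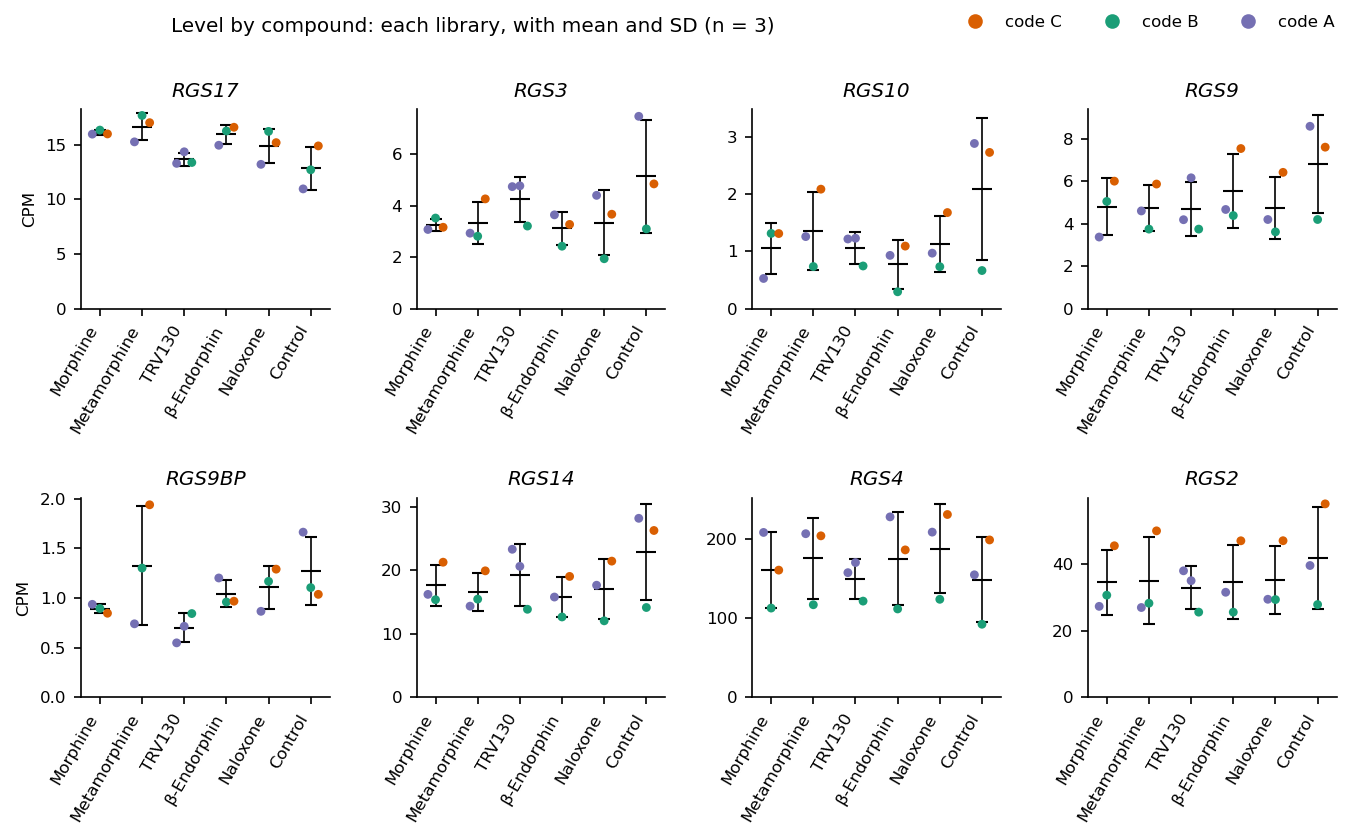
CPM of 8 members in each of the 3 libraries of each compound and of Control, with mean and SD, coloured by library code. RGS17 lies at 13.2 to 17.7 CPM with the compounds and at 10.97 to 14.9 in Control, and RGS3 and RGS10 have their highest value in the code A Control library.

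β-endorphin and naloxone, an agonist and an antagonist given at the same dose of 200 nM, for the same time and with the same 3 codes, were compared directly. The median absolute log2 fold change of the members was 0.06 for β-endorphin over naloxone, against 0.28 for β-endorphin over Control and 0.26 for naloxone over Control. Over all genes it was 0.09, 0.32 and 0.29, so the members followed the genes at large, and no test compares these medians. The 3 members with the smallest p were RGS10 at -0.54 (interval -1.80 to 0.72), RGS9 at 0.22 (interval -0.49 to 0.93) and RGS17 at 0.10 (interval -0.21 to 0.41), each with an adjusted p of 1.00. Without Control 1, Naloxone 1 and Naloxone 2 these were -1.15, -0.26 and 0.03, RGS9 thus with the opposite sign, and RGS9 was at -0.07 without β-endorphin 3. Leaving out those libraries keeps Naloxone 3 as the only naloxone library. With the code as a block and no Control 1 the values were -0.57, 0.20 and 0.08. The kinase and arrestin genes gave 0.01 for GRK2 (interval -0.27 to 0.29), 0.12 for GRK3 (interval -0.47 to 0.71), 0.01 for ARRB1 (interval -0.72 to 0.75) and 0.05 for ARRB2 (interval -0.36 to 0.47). Morphine and metamorphine differed in dose, and their values stand beside each other without a comparison. Both sets use the same 3 Control libraries.

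For the other members, group means and SDs over 3 libraries are given from the lowest to the highest compound group. The R4 gene RGS5, known from pericytes and vascular smooth muscle, ran from 2672 ± 126 CPM with TRV130 to 3341 ± 820.4 with metamorphine, against 2662 ± 1083 CPM in Control. RGS4, a regulator of Gαi, Gαo and Gαq that is abundant in brain, ran from 149.9 ± 25.3 CPM with TRV130 to 188 ± 56.6 with naloxone, against 149 ± 53.6 CPM in Control. The spread within Control alone exceeded the distance of its mean from every compound mean for both genes. RGS2 ran from 32.9 ± 6.49 CPM with TRV130 to 35.3 ± 10.2 with naloxone, against 41.9 ± 15.3 CPM in Control, RGS16 from 30.5 ± 6.88 CPM with TRV130 to 40.5 ± 9.91 with β-endorphin, against 38.8 ± 17.2 CPM in Control, and RGS8, a neuronal member of the family, from 15.3 ± 5.66 CPM with TRV130 to 23.5 ± 5.20 with β-endorphin, against 17.9 ± 7.47 CPM in Control. TRV130, the group with no code C library, had the lowest mean for all 3 of these. RGS13, known from germinal centre B cells and mast cells, stayed under 1 CPM in every library and ran from 0.179 ± 0.159 CPM with TRV130 to 0.481 ± 0.255 with morphine, against 0.456 ± 0.127 CPM in Control.

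The R7 proteins pair with Gβ5. RGS7, a neuronal one, ran from 14.5 ± 4.31 CPM with naloxone to 19.2 ± 5.599 with TRV130, against 15.8 ± 3.27 CPM in Control, and RGS11, a second one, from 24.1 ± 10.2 CPM with metamorphine to 42.1 ± 10.8 with TRV130, against 34.7 ± 19.3 CPM in Control. For RGS11 the SD in Control is more than the distance of its mean from every other group mean. Among the R12 genes, RGS12, a large protein that also binds GDP-bound Gα, ran from 73.2 ± 17.5 CPM with metamorphine to 82.7 ± 5.28 with TRV130, against 77.6 ± 20.4 CPM in Control, and RGS14, which joins RGS, Ras-binding and Gα-binding domains, from 15.8 ± 3.19 CPM with β-endorphin to 19.3 ± 4.87 with TRV130, against 22.9 ± 7.62 CPM in Control. RGS10, the third R12 gene, was given above. RGS20, a regulator of Gαz in the RZ family, ran from 6.03 ± 1.39 CPM with β-endorphin to 7.61 ± 0.784 with TRV130, against 8.19 ± 0.992 CPM in Control.

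Of the receptor kinases, GRK2, which is widely expressed and recruited by Gβγ, ran from 91.3 ± 7.38 CPM with naloxone to 101 ± 11.2 with TRV130, against 102 ± 8.45 CPM in Control. GRK4, best known from testis and kidney, ran from 10.2 ± 2.13 CPM with morphine to 11.4 ± 0.769 with TRV130, against 10.9 ± 0.487 CPM in Control. GRK4 had its lowest SD with naloxone and its highest with morphine. GRK5 and GRK6, which sit at the membrane without the help of Gβγ, ran from 39.98 ± 2.35 CPM with TRV130 to 45.4 ± 5.79 with metamorphine, against 43.7 ± 8.82 CPM in Control, and from 68.8 ± 8.21 CPM with morphine to 71.5 ± 17.4 with naloxone, against 74.2 ± 19.7 CPM in Control. ARRB2, the gene of β-arrestin 2, ran from 37.2 ± 6.75 CPM with naloxone to 44.6 ± 7.65 with TRV130, against 42.4 ± 8.23 CPM in Control. Per kb of exon ARRB2 stood at 9.14 and ARRB1 at 2.40 CPM, so the second arrestin gene gave the higher level on that scale. GPSM1, which has several Gα-binding motifs, ran from 149 ± 22.3 CPM with metamorphine to 186 ± 4.04 with TRV130, against 164 ± 33.3 CPM in Control. GPSM2, which positions the mitotic spindle together with NUMA1, ran from 41.96 ± 3.49 CPM with β-endorphin to 43.2 ± 1.07 with morphine, against 42.3 ± 2.88 CPM in Control. GPSM2 had the smallest ratio of highest to lowest library of all tested members, with 38.9 to 47.0 CPM over 18 libraries. GPSM3, a short relative of both, ran from 10.3 ± 1.19 CPM with naloxone to 13.4 ± 2.13 with TRV130, against 12.3 ± 2.37 CPM in Control.

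The library codes differed in many members, as they did in many genes. With the treatment group as a term, edgeR called 19 of 27 members for any difference among the codes, where 57.8% of all genes were called. Between C and B it called 17 members, 13 higher and 4 lower in C, where 54.8% of genes were called, 26.9% higher and 27.8% lower. Between C and A it called 8 members, 6 higher and 2 lower in C, where 33.2% of genes were called, 16.1% higher and 17.1% lower. Between B and A it called 9 members, 2 higher and 7 lower in B, where 26.9% of genes were called, 11.5% higher and 15.5% lower. The median log2 fold change of the members was 0.34 for C over B, 0.17 for C over A and -0.05 for B over A, against -0.04, -0.02 and 0.02 over all genes. Of the 19 called members, code C had the highest fitted level for 12, code B for 4 and code A for 3. Code B had the lowest fitted level for 12, code A for 4 and code C for 3. Fitted levels allow for the treatment group. This order of the 3 codes was not counted over all genes. The shares of members called lie near those of all genes, so the number of calls is not particular to these genes. Of the 17 calls between C and B, 16 held in every alternative run. Between C and A 4 of 8 held in all of them (RGS2, RGS8, RGS12 and RGS16), and between B and A 3 of 9 (RGS4, RGS7 and GRK6). With 1 library left out, 6 to 11 members were called between C and A, where 4819 to 8947 genes were. Between B and A the ranges were 6 to 12 members and 2520 to 7769 genes. Without Control 1, Naloxone 1 and Naloxone 2, fewer members and fewer genes were called in both of these pairs. Without Control 1, TRV130 1 and TRV130 2, more members were called between C and A, and the genes called there are not given. Marker sums moved with the codes as well: 7 mesenchymal markers summed to 150 to 176 CPM in code C, 188 to 217 in code B and 203 to 266 in code A, and 6 photoreceptor markers, of which PDE6B alone exceeded 1 CPM, to 23.3 to 39.9 CPM in code C, 71.9 to 116.5 in code B and 55.9 to 107.5 in code A. The mesenchymal sum is mostly VIM and FN1, which averaged 145 and 44.0 CPM, and the others averaged 6.56 CPM or less. VIM overlapped between codes C (105 to 134 CPM) and B (115 to 131), and FN1 did not (21.9 to 32.3 and 46.9 to 72.4). SNAI2 ran the other way, at 4.44 to 5.82 CPM in C and 2.83 to 5.05 in B. The part of these markers in the results by code was not tested, and in bulk RNA fewer cells of a type and less RNA per cell cannot be told apart.

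**Figure D3:**
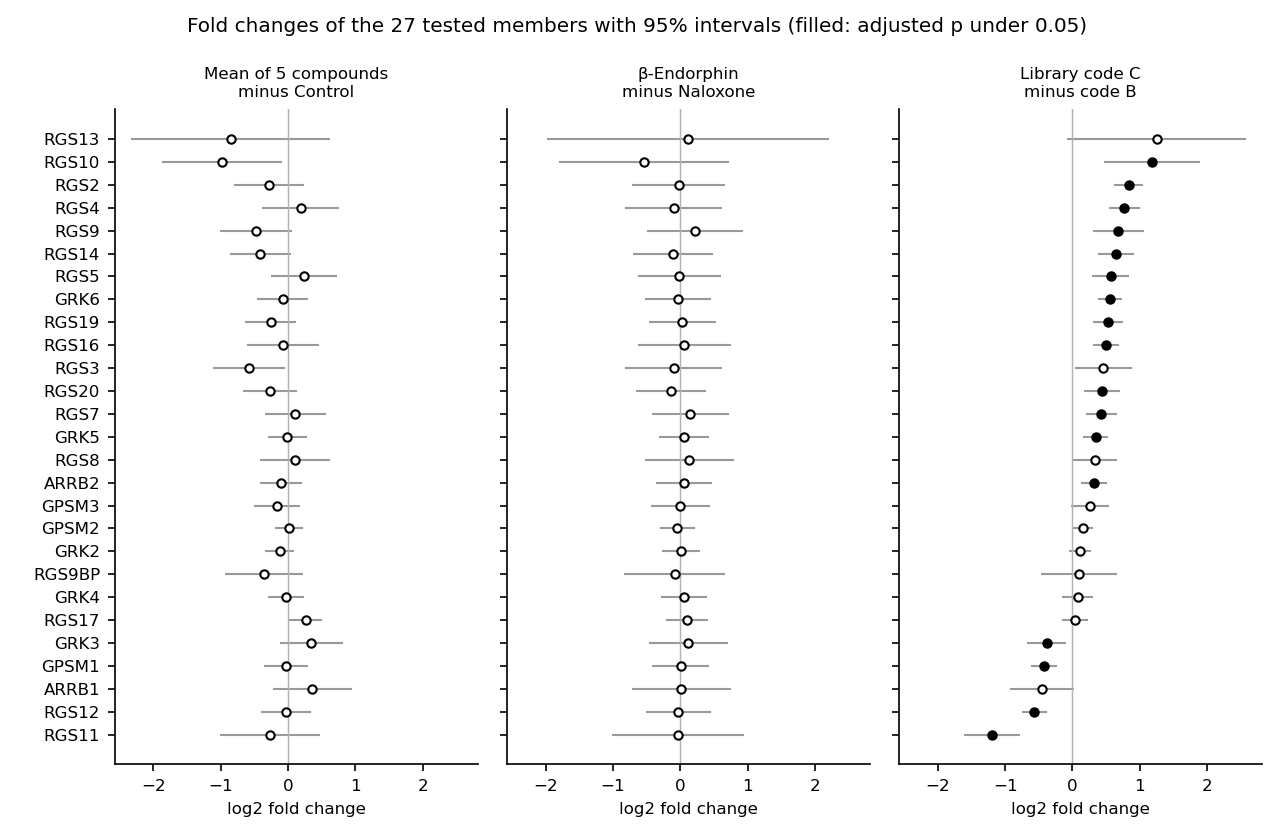
Log2 fold change and 95% interval of each of the 27 tested members for the mean of the compounds over Control, for β-endorphin over naloxone and for library code C over code B, with filled points for an adjusted p under 0.05. No point is filled in the first 2 panels, and 17 are filled in the third, 13 of them above 0.

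Of the R4 family, 6 of 7 tested members differed among codes, where 57.8% of all genes did. For codes B and A the values given for a member are the lowest, the median and the highest library. RGS16 separated all 3 codes without overlap: it read 46.7, 51.7, 51.7, 52.9 and 57.4 CPM in the code C libraries, against 35.5, 36.7 and 38.1 CPM in code B and 23.5, 28.1 and 32.96 CPM in code A. Its log2 fold change was 0.50 for C over B (SE 0.09, adjusted p = 0.000279), 0.90 for C over A (SE 0.09, adjusted p = 3.60e-05) and 0.39 for B over A (SE 0.08, adjusted p = 0.00480, or 0.32 and 0.0546 without Control 1, Naloxone 1 and Naloxone 2). RGS2 was higher in code C than in both other codes. It read 45.6, 47.1, 47.1, 50.1 and 58.2 CPM in the code C libraries, against 25.6, 28.1 and 30.7 CPM in code B and 26.99, 31.6 and 39.6 CPM in code A. Every code C library lay above every other library, with log2 fold changes of 0.84 over B (SE 0.10, adjusted p = 1.66e-05) and 0.64 over A (SE 0.10, adjusted p = 0.000548), while B and A overlapped (-0.20 for B over A, adjusted p = 0.132).

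RGS4 and RGS5, neighbours on chromosome 1, both had their highest mean in code C and their lowest in code B. RGS4 read 161, 186, 199, 204 and 231 CPM in the code C libraries, against 92.3, 115 and 124 CPM in code B and 155, 207 and 228 CPM in code A. Code B lay below both others without overlap, at 0.77 for C over B (SE 0.11, adjusted p = 3.29e-05) and -0.76 for B over A (SE 0.10, adjusted p = 0.000270), and C over A was 0.01 (adjusted p = 0.946). RGS5 read 3371, 3755, 3909, 4029 and 4254 CPM in the code C libraries, against 2124, 2663 and 2894 CPM in code B and 1954, 3104 and 3392 CPM in code A. It was higher in code C, by 0.57 over B (SE 0.13, adjusted p = 0.00183) and 0.42 over A (SE 0.13, adjusted p = 0.0237). The call of C over A was lost without Control 3 (0.31, adjusted p = 0.0995), without Metamorphine 3 (0.40, adjusted p = 0.0662) or without Control 1, Naloxone 1 and Naloxone 2 (0.34, adjusted p = 0.144). C and B did not overlap, and C and A did. Whether the 2 genes differ from each other in their response to the code was not tested. RGS8, next to RGS16, read 20.9, 22.9, 25.1, 25.5 and 29.4 CPM in the code C libraries, against 14.2, 18.6 and 24.9 CPM in code B and 10.6, 16.4 and 21.4 CPM in code A. It was higher in C than in A (log2 fold change 0.68, SE 0.15, adjusted p = 0.00394), with overlapping ranges. RGS3 read 3.16, 3.27, 3.66, 4.26 and 4.84 CPM in the code C libraries, against 1.93, 2.95 and 3.51 CPM in code B and 2.93, 4.40 and 7.47 CPM in code A. Its ranges overlapped in every pair, and it was called lower in B than in A at -0.58 (SE 0.18, adjusted p = 0.0276), a call lost when any of 8 libraries was left out, namely Control 1, Control 2, TRV130 2, TRV130 3, β-endorphin 1, β-endorphin 2, Naloxone 1 or Naloxone 2 (-0.60 to -0.44, adjusted p 0.0510 to 0.0906). It was -0.57 without the TRV130 libraries (adjusted p = 0.103), -0.32 without Control 1, Naloxone 1 and Naloxone 2 (adjusted p = 0.291) and -0.42 without Control 1, TRV130 1 and TRV130 2 (adjusted p = 0.198). RGS13, at 0 to 0.674 CPM, was the R4 gene not called (adjusted p = 0.137 for any difference).

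**Figure D4:**
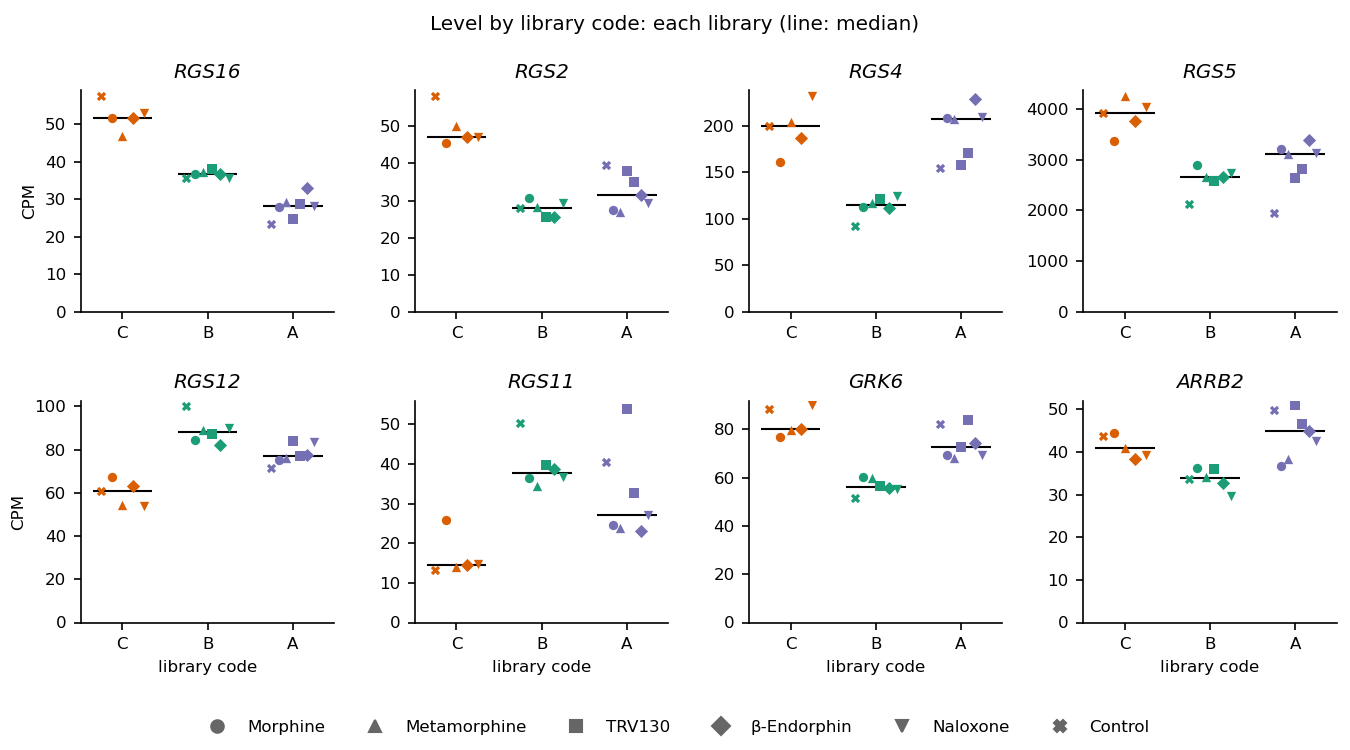
CPM of 8 members in each library of code C, code B and code A, with the median as a line and a symbol for each group. RGS16 lies at 46.7 to 57.4 CPM in code C, 35.5 to 38.1 in code B and 23.5 to 32.96 in code A, and RGS12 and RGS11 are lowest in code C.

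The R7 family was called throughout, 3 of 3 tested, in different directions, where 57.8% of all genes were called. RGS7 read 15.2, 15.9, 17.04, 18.02 and 19.2 CPM in the code C libraries, against 9.71, 12.5 and 15.9 CPM in code B and 17.3, 20.2 and 22.9 CPM in code A. It was lower in B than in A without overlap (-0.62, SE 0.10, adjusted p = 0.000933) and higher in C than in B (0.43, SE 0.11, adjusted p = 0.00273). RGS11 ran the other way and read 13.1, 14.1, 14.6, 14.7 and 25.9 CPM in the code C libraries, against 34.5, 37.8 and 50.3 CPM in code B and 23.1, 27.04 and 53.97 CPM in code A. Its log2 fold change was -1.20 for C over B (SE 0.20, adjusted p = 0.000110) and -0.81 for C over A (SE 0.20, adjusted p = 0.00596, or -0.66 and 0.0710 without Control 1, Naloxone 1 and Naloxone 2), with Morphine 3 the 1 code C library above 15 CPM. RGS9 read 5.87, 6.004, 6.42, 7.54 and 7.61 CPM in the code C libraries, against 3.61, 3.97 and 5.05 CPM in code B and 3.37, 4.60 and 8.59 CPM in code A. C lay above B without overlap (0.68, SE 0.18, adjusted p = 0.00447). GNB5, the gene of Gβ5, was called for any difference among codes (adjusted p = 0.0360), with 0.26 for C over B (adjusted p = 0.0305). The anchor RGS9BP was not called (adjusted p = 0.798).

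All 3 R12 genes were called, where 57.8% of all genes were. RGS12 read 54.0, 54.5, 60.9, 63.2 and 67.1 CPM in the code C libraries, against 82.1, 88.2 and 100.3 CPM in code B and 71.6, 76.9 and 84.1 CPM in code A. It was lower in C than in both B (-0.56, SE 0.09, adjusted p = 7.19e-05) and A (-0.37, SE 0.09, adjusted p = 0.00506), with no overlap in either pair. RGS14 read 19.04, 19.9, 21.3, 21.4 and 26.3 CPM in the code C libraries, against 12.04, 14.001 and 15.5 CPM in code B and 14.3, 17.7 and 28.2 CPM in code A. It was higher in C than in B without overlap (0.65, SE 0.12, adjusted p = 0.000413) and lower in B than in A (-0.43, SE 0.12, adjusted p = 0.0145), the call between B and A being lost without Control 2 (-0.35, adjusted p = 0.0520) or TRV130 3 (-0.37, adjusted p = 0.0726). It was -0.36 without the TRV130 libraries (adjusted p = 0.0957), -0.32 without Control 1, Naloxone 1 and Naloxone 2 (adjusted p = 0.136) and -0.24 without Control 1, TRV130 1 and TRV130 2 (adjusted p = 0.170). RGS10 read 1.09, 1.31, 1.67, 2.08 and 2.72 CPM in the code C libraries, against 0.292, 0.731 and 1.31 CPM in code B and 0.524, 1.21 and 2.88 CPM in code A. Its fold was wide, 1.18 for C over B (SE 0.34, interval 0.46 to 1.89, adjusted p = 0.00748), and the ranges overlapped. Of the RZ family, RGS19 and RGS20 were called and RGS17 was not (adjusted p = 0.213). RGS19 read 15.6, 17.3, 19.6, 20.6 and 21.1 CPM in the code C libraries, against 11.9, 13.9 and 15.2 CPM in code B and 13.2, 16.99 and 21.99 CPM in code A. It was higher in C than in B (0.53, SE 0.11, adjusted p = 0.000577) and lower in B than in A (-0.34, adjusted p = 0.0182), where leaving out Control 2, TRV130 3 or β-endorphin 1 ended the call (-0.33 to -0.30, adjusted p 0.0503 to 0.0837). Here too the call was lost without the TRV130 libraries (-0.28, adjusted p = 0.112) and without either of the 2 sets of 3 libraries (-0.39, adjusted p = 0.0532, for the set with Naloxone and -0.23, adjusted p = 0.180, for the set with TRV130). RGS20 read 7.62, 8.20, 8.28, 8.56 and 9.28 CPM in the code C libraries, against 5.05, 6.63 and 7.66 CPM in code B and 5.17, 5.89 and 8.95 CPM in code A. It was higher in C than in B (0.44, adjusted p = 0.00875) and in A (0.46, adjusted p = 0.0128), the call over A being lost in a fit without the treatment group (0.35, adjusted p = 0.0608).

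Of the 5 receptor kinases 3 differed among codes, not all in one direction, where 57.8% of all genes differed. GRK6 read 76.7, 79.9, 80.1, 88.5 and 89.97 CPM in the code C libraries, against 51.7, 56.1 and 60.3 CPM in code B and 68.2, 72.6 and 84.02 CPM in code A. Code B lay below both other codes without overlap, at 0.56 for C over B (SE 0.09, adjusted p = 6.33e-05) and -0.38 for B over A (SE 0.08, adjusted p = 0.00406). GRK5 read 49.2, 49.4, 50.3, 52.05 and 53.9 CPM in the code C libraries, against 36.5, 40.7 and 43.4 CPM in code B and 37.5, 41.4 and 47.4 CPM in code A. Code C lay above both others, by 0.34 over B (SE 0.09, adjusted p = 0.00286) and 0.30 over A (SE 0.08, adjusted p = 0.0144), the call over A being lost without Control 3 (0.26, adjusted p = 0.0506) or without Control 1, Naloxone 1 and Naloxone 2 (0.28, adjusted p = 0.0788). GRK3 read 82.8, 88.6, 89.2, 101 and 101 CPM in the code C libraries, against 101, 119 and 124 CPM in code B and 48.6, 91.8 and 103 CPM in code A. It was lower in C than in B (-0.38, SE 0.13, adjusted p = 0.0237), a call lost when Control 2, Morphine 3, Metamorphine 3, β-endorphin 3, Naloxone 2 or Naloxone 3 was left out (-0.37 to -0.30, adjusted p 0.0508 to 0.0892), without the TRV130 libraries (-0.30, adjusted p = 0.0511) or without the treatment group in the fit (-0.32, adjusted p = 0.108). It was higher in B than in A (0.54, SE 0.12, adjusted p = 0.00600), where Control 1, TRV130 1 and TRV130 2 hold the low values and the call was lost without the TRV130 libraries (0.41, adjusted p = 0.0566). GRK2 (adjusted p = 0.340) and GRK4 (adjusted p = 0.790) were not called for any difference. GRK2 ran from 83.5 to 111.3 CPM and GRK4 from 8.91 to 12.7 CPM over all libraries.

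ARRB2 was lower in code B than in both others without overlap. It read 38.3, 39.4, 40.9, 43.6 and 44.4 CPM in the code C libraries, against 29.7, 33.8 and 36.2 CPM in code B and 36.7, 44.97 and 50.99 CPM in code A. The log2 fold change was 0.32 for C over B (SE 0.09, adjusted p = 0.00631) and -0.37 for B over A (SE 0.08, adjusted p = 0.00595). The call between B and A was lost at -0.31 without Control 1, Naloxone 1 and Naloxone 2 (adjusted p = 0.0720) and without Control 1, TRV130 1 and TRV130 2 (adjusted p = 0.0528). ARRB1 was not called (adjusted p = 0.116 for any difference), with 11.1, 11.97, 13.7, 13.99 and 14.3 CPM in the code C libraries, against 13.6, 16.5 and 18.6 CPM in code B and 6.03, 15.4 and 19.1 CPM in code A. Of the GPSM genes GPSM1 was called. It read 121, 125, 128, 132 and 163 CPM in the code C libraries, against 172, 182 and 198 CPM in code B and 147, 157 and 189 CPM in code A, with -0.43 for C over B (SE 0.09, adjusted p = 0.000969). GPSM2 (adjusted p = 0.112) and GPSM3 (adjusted p = 0.150) were not called.

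Genes that work with the members were not called by treatment either. Of 60 listed partners, which include both anchors, 53 were tested: opioid receptors, Gα subunits, Gβ5 and R7 anchors, other RGS homology proteins, visual and α-arrestins with the visual kinases, GPSM partners, and endocytosis genes. In the 8 treatment comparisons 0 of 53 were called. Among the 6 groups the smallest unadjusted p in each list belonged to OPRL1 and OPRM1, GNA14 and GNAQ, RGS9BP and GPR179, ARHGEF12 and ARHGEF1, ARRDC1 and ARRDC3, PCP2 and CCDC88A, and CLTC and AP2B1, of which PCP2 had the lowest at 0.0844 (adjusted p = 1). Between codes 36 of 53 were called for any difference, where 57.8% of all genes were, 31 for C against B, where 54.8% of genes were, 23 for C against A, where 33.2% were, and 17 for B against A, where 26.9% were.

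By list, any difference among codes was called for 3 of 3 tested opioid receptors, 5 of 8 Gα genes (GNAI1, GNAI3, GNAO1, GNAZ and GNAQ), 1 of 3 R7 partners (GNB5), 5 of 9 RGS homology genes (AXIN2, SNX13, AKAP10, ARHGEF1 and ARHGEF11), 6 of 7 visual and α-arrestin genes (ARR3, GRK1, ARRDC1, ARRDC3, ARRDC4 and TXNIP), 4 of 8 GPSM partners (NUMA1, FRMPD1, RIC8A and CCDC88A) and 12 of 15 endocytosis genes (CLTA, CLTB, AP2A1, AP2A2, AP2M1, AP2S1, DNM1, DNM2, DNM3, NEDD4, USP20 and USP33). The μ receptor gene OPRM1, the target of most of these ligands, averaged 11.8 CPM. Its code C libraries read 4.93 to 8.19 CPM, against 13.6 to 20.9 CPM in code B and 5.76 to 15.3 CPM in code A. The log2 fold change was -1.57 for C over B (SE 0.20, adjusted p = 2.04e-05) and -0.85 for C over A (SE 0.20, adjusted p = 0.00479), and the δ receptor gene OPRD1 had -1.29 for C over B (SE 0.18, adjusted p = 3.59e-05). OPRL1 went the other way and was called higher in C than in A. It read 15.8 to 20.9 CPM in code C, 15.9 to 19.7 in code B and 12.5 to 16.8 in code A. TXNIP, an α-arrestin that limits glucose uptake, had 0.89 for C over A (SE 0.08, adjusted p = 1.91e-05). GNAI1, a Gαi target of many of the RGS proteins above, had 0.61 for C over B (SE 0.11, adjusted p = 0.000288), and DNM1, the neuronal dynamin that pinches off vesicles, had -1.08 (SE 0.16, adjusted p = 6.07e-05).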

How the data were processed

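The deposited table holds raw counts per Ensembl gene, made by the authors from paired-end, unstranded libraries of 18 samples. The submitters' processing notes name FastQC, HISAT2, featureCounts and DESeq2, with the build GRCh38 (hg38). No source used here gives versions, settings or the annotation, so how reads mapping to several genes were counted is unknown. Symbols, exon lengths and positions came from a GENCODE annotation of GRCh38 in which all 58735 IDs were found. No column was left unused (0), and no 2 libraries were identical.

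Counts were tested with edgeR 4.0.16 in R 4.3.3 (robust quasi-likelihood, TMM scaling, genes kept by filterByExpr at a minimum count of 10, 23231 genes tested), over all 18 libraries with group as the only term. Library codes were tested with group and code as terms. P-values were adjusted over all tested genes by Benjamini and Hochberg, and a call is an adjusted p under 0.05. The biological coefficient of variation was 0.309. The SE is the size of the log2 fold change over the root of its F statistic, and intervals cover 95%. CPM values use TMM-scaled library sizes, and a floor is 3 counts of a library, for counting error only. The procedure was tested on simulated data. The simulated libraries differed between codes in few genes, and their spread came from a fit with code as a term. The simulation therefore does not show what change the treatment tests can detect here.

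Levels are given for every member of at least 1 CPM on average and library values for members that passed a comparison, or, where fewer than 3 passed, for the 3 with the smallest p. Of the partner lists, those that passed, or else the 2 with the smallest p, are named. The members and all lists were chosen with earlier results of these data known.

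Alternatives were DESeq2 1.42.0, RLE scaling, no low-count filter, the code or replicate number as a block, the compared groups alone, the code without group, no TRV130 libraries, and each library left out. Replicate numbers pair Naloxone with Control by the data (correlations of 0.249, 0.726 and 0.702) and β-endorphin with naloxone (0.178 to 0.722), where same-numbered libraries share a code, and the replicate block changed no call there.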

Additional observations from a re-analysis of the deposited data

Results flagged for a closer look

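Each tested member was checked within each library code for 1 library far from the rest, by the gap to its nearest neighbour as a share of the whole range, and 5 of 81 sets had one. Chance flags about 1 in 20 such sets. In code A, Control 1 was the high library for RGS3 at 7.47 CPM, against 2.93 to 4.77 in the other 6 libraries, and for RGS10 at 2.88 CPM, against 0.524 to 1.25. Control 1 is also the library with most reads in otherwise silent genes. In code B, Control 2 was high for RGS11 at 50.3 CPM, against 34.5 to 39.7 in the other 5. In code C, Morphine 3 was high for RGS11 at 25.9 CPM, against 13.1 to 14.7, and for GPSM1 at 163 CPM, against 121 to 132 in the other 4 libraries.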

How the results depend on the processing

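No member was called by treatment under any alternative, including the 2 sets of 3 libraries left out, and the code block without Control 1, which were chosen after seeing the data. Of the fold changes named for members, 1154 values kept direction and side of the threshold, 41 fell short of it and 3 reversed. For an uncalled fold change, as in all treatment comparisons, this asks only for the same sign and again no call. RGS9 with TRV130 thus counts as kept while moving from -0.53 to -0.01, so the 1154 do not measure stable sizes. RGS9 turned to 0.16 for naloxone over Control and to -0.26 for β-endorphin over naloxone without Control 1, Naloxone 1 and Naloxone 2, and with 1 library left out the second ran from -0.0687 (without β-endorphin 3) to 0.514 (without Naloxone 3). Without Control 1, Naloxone 1 and Naloxone 2, the only naloxone library left is Naloxone 3, of code C. The cause was not tested.

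Over all genes, DESeq2 called 1 gene for TRV130, 3 for β-endorphin, 1 for naloxone, 5 for the mean of the compounds and 1 for β-endorphin over naloxone, where edgeR called 0. For the mean of the compounds edgeR called 3270 genes with no low-count filter, 1 with the code as a block, 1 with that block and no Control 1, and 0 to 366 with 1 library left out, 366 being without Control 3. The replicate block left each treatment count at 0. Same-numbered libraries of morphine, metamorphine and β-endorphin also share a code with Control. Their correlations with Control were 0.39 to 0.67 for numbers 2 and 3, and -0.26 to 0.10 for number 1, that of Control 1. For TRV130, whose numbers 2 and 3 do not share a code with Control, they were 0.46, -0.53 and -0.18.

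Between codes B and A, genes called fell to 1862 without the TRV130 libraries, 1881 without Control 1, Naloxone 1 and Naloxone 2 and 2130 without Control 1, TRV130 1 and TRV130 2, with 2520 to 7769 when 1 library was left out (2520 without TRV130 3, 3325 without Control 2, 4038 without Naloxone 2). Members called were 5 and 4 under the first 2 of these settings and 6 to 12 with 1 library out. Between C and A, genes called were 4724 without Control 1, Naloxone 1 and Naloxone 2, and 4819 (without Naloxone 3) to 8947 with 1 library out. Members called there were 5 in the first setting, 13 without Control 1, TRV130 1 and TRV130 2, and 6 to 11 with 1 library out. For any difference the ranges were 11591 to 14643 genes and 17 to 22 members, and for C against B 11089 to 14098 genes and 16 to 21 members. The number of reads limits RGS10, RGS13 and RGS9BP most, and the 3 libraries a group limit every treatment comparison.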
